A study of Homo sapiens with 21 samples.

Results

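The enzymes that write and remove DNA methylation were described in human iPSCs differentiating into cardiomyocytes, from RNA levels that each pool more than 1 group. The set held the methyltransferases DNMT1, DNMT3A and DNMT3B, the cofactor DNMT3L, the DNMT1 recruiter UHRF1, the dioxygenases TET1, TET2 and TET3 and the glycosylase TDG. Members were chosen by name, as every row of the deposited tables that carries 1 of these 9 gene symbols. Of the 9 genes, 7 were listed in at least 1 table, where 57.5% of all annotated protein-coding genes were. They had 13 transcripts in 26 rows, out of 36579 rows, 21537 transcripts and 11851 gene symbols in all 6 tables.

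The series holds 21 poly-A RNA-seq libraries of PGP1, an established human iPSC line. Wild-type cells gave 15 of them, in triplicate at each of 5 stages. These are undifferentiated iPSCs, then M (mesoderm), CMes (mesoderm committed to the heart), CP (progenitors) and CM (cardiomyocytes). The other 6 were CM libraries of 2 UBE2B-/- lines made by CRISPR in the same PGP1 background, 3 from each line. UBE2B is the ubiquitin-conjugating enzyme that works with RNF20 to ubiquitinate histone H2B. Cells past the iPSC stage came from a directed differentiation with CHIR99021 and, later, the Wnt inhibitor IWP4. Which stages were collected after IWP4 was added is not given here. UBE2B-/- cells started from a denser plating than wild type, and wells that beat were then selected in lactate. By the study's account the UBE2B-/- libraries came from beating cells. Plates of the replicates were started on separate occasions.

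Every deposited value pools libraries. A table gives, for each transcript it lists, the authors' mean of the natural log of the estimated counts plus 0.5, taken over the 6 libraries of 2 adjacent stages, or over 9 CM libraries (wild type and both UBE2B-/- lines). No value of a single library was used here, so the depth of a library and the overlap of groups are unknown. The authors' own fitted effects and tests between groups, which the tables also hold, were not used, so no stage is given a level of its own and no test between groups is given. Levels below are the exponential of that mean less 0.5, in estimated counts. The error beside a level is the within-group SD on the natural-log scale, the spread between replicates that the authors' fit left after the group means were removed. Rows were listed only where they passed the authors' own limit for a difference, so a transcript that is not listed has no readable level, and a row count is no measure of expression.

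DNA methylation is laid down on cytosines of CG dinucleotides by DNMT3A and DNMT3B and is copied to the new strand after replication by DNMT1, which UHRF1 brings to hemimethylated sites. TET enzymes oxidize the methyl group, and TDG cuts out the oxidized bases so that base excision repair can restore cytosine. Pluripotent cells are known for abundant DNMT3B and TET1. These pathways act together, so the genes are described by role: de novo methylation, maintenance, then demethylation.

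Levels of defining markers are given as a description and not as a check of the stages. A marker that is not listed may still be expressed, and each value pools libraries of more than 1 group. The cardiomyocyte markers TNNT2, MYH6, MYH7 and ACTN2 were listed in none of the iPSC and M or M and CMes tables, and 4 of 4 were listed in the CP and CM table, where their summed level was 28741 estimated counts against 476.2 in the CMes and CP table. The pluripotency markers POU5F1, SOX2 and NANOG had summed levels of 8321, 2703 and 54.8 in the M and CMes, CMes and CP, and CP and CM tables, from 2, 3 and 2 listed genes. SOX2 was not listed in M and CMes, nor NANOG in CP and CM. The highest POU5F1 transcript was ENST00000437747.6 in M and CMes (7169) and in CP and CM (17.8). In CMes and CP another, ENST00000383524.4, was highest at 1930.5, so these sums do not follow 1 set of transcripts. Mesoderm markers (TBXT, MIXL1, EOMES) had summed levels of 750.7, 114.4, 752.6 and 27.9 in the 4 wild-type tables in order of stage. Of the 3 genes, 3, 2, 3 and 1 were listed. In M and CMes, MIXL1 was not listed and the highest EOMES transcript was ENST00000449599.3 at 3.65. In CMes and CP it was ENST00000295743.8 at 522.6, so these sums also depend on what was listed. Cardiac mesoderm markers (MESP1, MESP2, PDGFRA) had 54.3, 325.6, 4479 and 2274, from 1, 3, 3 and 1 listed genes. PDGFRA alone held 54.3, 289.6, 4434 and 2274 of these. MESP1 and MESP2 stood at 18.4 and 17.6 in M and CMes and at 22.65 and 21.7 in CMes and CP. Cardiac progenitor markers (ISL1, NKX2-5, HAND2) had 31.8, 704 and 1191 in the 3 tables that listed them, from 2, 3 and 2 listed genes. Endothelial markers were listed in no table. Smooth muscle markers (MYH11, CNN1) were listed in all 6 tables, with 1 or 2 of 2 genes and summed levels of 207.4 to 2198. Stromal markers (DCN, LUM, COL1A1) were listed in all 6 tables, with 1 to 3 of 3 genes and summed levels of 35.6 to 48096. The lowest sum, in M and CMes, came mostly from a COL1A1 transcript of 549 nt (ENST00000507689.1) at 32.1. The same transcript was the highest of COL1A1 in CP and CM, at 78.5. In iPSC and M and in CMes and CP the highest was 5914 nt long (ENST00000225964.9), at 2059 and 7343. The highest sum, in the UBE2B-/- line 2 table, came mostly from COL1A1 at 46273. The line 1 table listed DCN alone, at 201.4. Both tables pool the same 9 libraries in 1 fit, so their sums differ by which genes were listed and do not compare the lines. Endoderm markers were listed in 5 tables, with 1 to 3 of 3 genes and summed levels of 5.24 to 2832. Their part in the levels below was not tested. In bulk RNA, fewer cells of a type and less RNA per cell cannot be told apart.

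UBE2B itself could not be checked per library. It had 4 transcripts in the CP and CM table, and 1 (ENST00000499038.2) in the UBE2B-/- line 1 table at a pooled level of 79.7 estimated counts over the 9 libraries. The 2 UBE2B-/- tables came from 1 fit, since all 1992 transcripts listed in both had equal means.

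DNMT3B had the highest level of the listed members in the iPSC and M and CMes and CP tables. Those tables listed 2 and 3 of the 9 members, and the others have no readable level there. In the CP and CM table, where its main transcript was also listed, DNMT3B ranked 6 of the 7 listed members by estimated counts. DNMT3B (ENSG00000088305.19) lies on the plus strand of chromosome 20 in GRCh38. Its listed transcripts were DNMT3B-202 (ENST00000328111.6, chr20:32762385-32809356, 23 exons, 853 codons), DNMT3B-203 (ENST00000348286.6, chr20:32762424-32809356, 20 exons, 770 codons) and DNMT3B-201 (ENST00000201963.3, chr20:32779852-32809356, 22 exons, 845 codons). The names are those of the GENCODE 44 annotation. DNMT3B-203 skips 3 internal exons of DNMT3B-202. They are shown because, with a few bases at the 5′ end, they are what separates the 2 transcripts in the reads. CG dinucleotides, the substrate of the encoded enzyme, are in capitals. Exon 10 lies at chr20:32793536-32793595, exon 21 at chr20:32805338-32805407 and exon 22 at chr20:32806209-32806327, all coding and on the plus strand.
DNMT3B exon 10: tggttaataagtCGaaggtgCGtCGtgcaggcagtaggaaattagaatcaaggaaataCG
DNMT3B exon 21: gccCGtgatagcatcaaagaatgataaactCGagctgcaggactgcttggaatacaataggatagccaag
DNMT3B exon 22: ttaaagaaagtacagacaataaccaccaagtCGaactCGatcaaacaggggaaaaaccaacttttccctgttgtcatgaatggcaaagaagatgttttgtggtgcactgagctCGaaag
Exon 10 adds 60 nt, a whole 20 codons. Exons 21 and 22 add 70 and 119 nt, neither a multiple of a codon alone, but together 189 nt or 63 codons, so that skipping both keeps the frame. These last exons encode part of the catalytic region, and the form without them is known as an inactive isoform. DNMT3B-201 keeps exons 21 and 22 but lacks exon 10, and starts at another first exon.

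**Figure D1:**
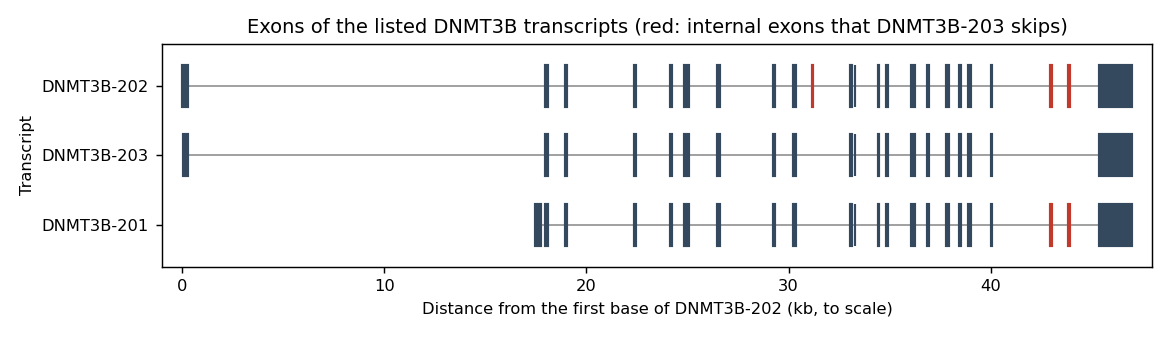
Exon maps of the 3 listed DNMT3B transcripts, to scale, against the distance in kb from the first base of DNMT3B-202. Blocks are exons, lines are introns, and red blocks mark internal exons that DNMT3B-203 skips, 3 in DNMT3B-202 and 2 in DNMT3B-201.

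DNMT3B-202 stood at 30942 estimated counts in the iPSC and M table (mean ln 10.34, within-group SD 0.153, 6 libraries), at 8249 in the CMes and CP table (9.02, SD 0.2) and at 362 in the CP and CM table (5.89, SD 0.315). It was not listed in the M and CMes table. Its technical variance in CP and CM, which covers the doubt in assigning reads to transcripts, was 1.37 against a within-group variance of 0.0993. Its level there is thus less certain than the SD shows. Its iPSC and M level was above 99.9% of the 3315 listed transcripts, and its CP and CM level above 63.1% of 12982. Per kb of transcript it held 7136, 1902 and 83.5 estimated counts.

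The tables were normalized separately, so a difference between them was read against the median of all transcripts listed in both. From the iPSC and M to the CMes and CP table the natural log of DNMT3B-202 differed by -1.32, where the median of 1280 shared transcripts differed by 0.0553. From the CMes and CP to the CP and CM table it differed by -3.12, where the median of 3743 shared transcripts differed by -0.153. Of those, 33 had a lower difference. The latter tables share the CP libraries, and each mean blends 2 stages, so these differences describe pooled means and are not changes between stages.

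The pooled means of DNMT3B-203 lay close together in the 3 tables that listed it. Its level was 946.3 in iPSC and M (SD 0.294), 936.1 in M and CMes (SD 0.203) and 845.8 in CMes and CP (SD 0.187). The difference of its means from the first to the last of these was -0.112 on the natural-log scale, less than either SD. Each of these rows was listed for a difference between the 2 stages it pools, so close pooled means do not show equal levels at the stages. DNMT3B-202 exceeded it 32.7-fold in iPSC and M and 9.75-fold in CMes and CP, so DNMT3B-203 made up 2.97% and 9.3% of the listed DNMT3B level. DNMT3B-201 appeared in CMes and CP at 3.77 estimated counts (SD 0.449), or 0.0414% of the listed level.

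DNMT3A (ENSG00000119772.19), the other de novo methyltransferase, lies on the minus strand of chromosome 2. It had 2 listed transcripts that start at different promoters. DNMT3A-201 (ENST00000264709.7, chr2:25227855-25342590, 23 exons) has 912 codons, and DNMT3A-203 (ENST00000380746.8, chr2:25232976-25252311, 19 exons) has 723 codons and encodes the short form that lacks the N-terminal part. The promoter windows, 250 bases before to 50 after a RefSeq start in GRCh38.p14, are shown because DNMT3A-203 was listed in all 4 wild-type tables and DNMT3A-201 in the CP and CM table alone. Capitals mark CG dinucleotides, which read the same on both strands.
DNMT3A-201 promoter, chr2:25342541-25342840, minus strand: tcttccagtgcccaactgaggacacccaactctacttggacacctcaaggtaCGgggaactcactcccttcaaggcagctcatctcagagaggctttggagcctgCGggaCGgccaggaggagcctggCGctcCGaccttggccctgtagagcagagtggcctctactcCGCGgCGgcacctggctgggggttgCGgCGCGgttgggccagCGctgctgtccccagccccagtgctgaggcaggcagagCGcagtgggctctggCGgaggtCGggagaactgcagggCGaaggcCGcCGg
DNMT3A-203 promoter, chr2:25252266-25252565, minus strand: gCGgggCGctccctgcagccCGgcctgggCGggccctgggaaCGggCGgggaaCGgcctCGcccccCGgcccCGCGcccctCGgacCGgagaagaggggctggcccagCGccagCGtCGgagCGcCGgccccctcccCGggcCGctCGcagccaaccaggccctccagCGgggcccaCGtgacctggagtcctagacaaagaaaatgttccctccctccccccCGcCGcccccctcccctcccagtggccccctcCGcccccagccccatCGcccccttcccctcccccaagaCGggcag
The DNMT3A-201 window, whose start is that of the transcript, held 18 CG dinucleotides, and the DNMT3A-203 window, whose start is 4 nt from it, held 28. At least 1 CG was found in 96% of 35116 promoter windows, with a median of 14, so both counts lay above the median. RefSeq windows were matched for 8 of 9 members, all but DNMT3L. Methylation of these bases was not measured.

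DNMT3A-203 was the only member transcript listed in all 4 wild-type tables. Its level was 1476 in iPSC and M (SD 0.122), 1582 in M and CMes (SD 0.106), 1797 in CMes and CP (SD 0.119) and 985.4 in CP and CM (SD 0.113). From CMes and CP to CP and CM its mean differed by -0.6 on the natural-log scale, against a median of -0.153, and 26.7% of shared transcripts had a lower difference. The difference among the first 3 tables was at most 0.196. DNMT3A-201 was listed in CP and CM alone, at 1643 estimated counts (SD 0.0842). There it held 62.5% of the listed DNMT3A level, but per kb it held 173 estimated counts against 274.6 for DNMT3A-203, since it is 9501 nt long against 3589.

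DNMT3L, which stimulates the de novo enzymes and has no catalytic activity of its own, was listed in no table, and its level cannot be read.

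Among the maintenance genes, DNMT1 (ENSG00000130816.17, chromosome 19, minus strand) was represented by a different coding transcript in each table that listed it. DNMT1-202 (ENST00000359526.9, chr19:10133346-10194953, 41 exons, 1632 codons) stood at 2636 estimated counts in M and CMes (SD 0.0902). DNMT1-201 (ENST00000340748.8, chr19:10133346-10195135, 40 exons, 1616 codons) stood at 1041 in CP and CM (SD 0.244). A short transcript that the annotation marks for nonsense-mediated decay, DNMT1-210 (ENST00000586988.5, 711 nt, 9 exons), was listed in M and CMes at 124.2 estimated counts (SD 0.076), 4.5% of the listed DNMT1 level. No table listed the same DNMT1 transcript as another, so its levels were not compared between tables.

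UHRF1 (ENSG00000276043.5, chr19, plus strand), the reader of hemimethylated DNA, was listed as UHRF1-207 (ENST00000624301.3) and UHRF1-208 (ENST00000650932.1). Both are 3898 nt long with 793 codons and are shifted by 3 nt, so they share 3895 nt (99.92%), and their values were equal in each of the 3 wild-type tables that listed them. Reads of the 2 can hardly be told apart, and Kallisto divides a read among the transcripts it fits, so each row holds part of the UHRF1 reads. The level of either row was 575.4 in M and CMes (SD 0.173), 632.9 in CMes and CP (SD 0.167) and 197.1 in CP and CM (SD 0.378). From CMes and CP to CP and CM the mean differed by -1.16 on the natural-log scale, against a median of -0.153, and 10.7% of the 3743 shared transcripts had a lower difference. Its replicate spread was the largest of the members in the CP and CM table, 1.46-fold for 1 SD.

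**Figure D2:**
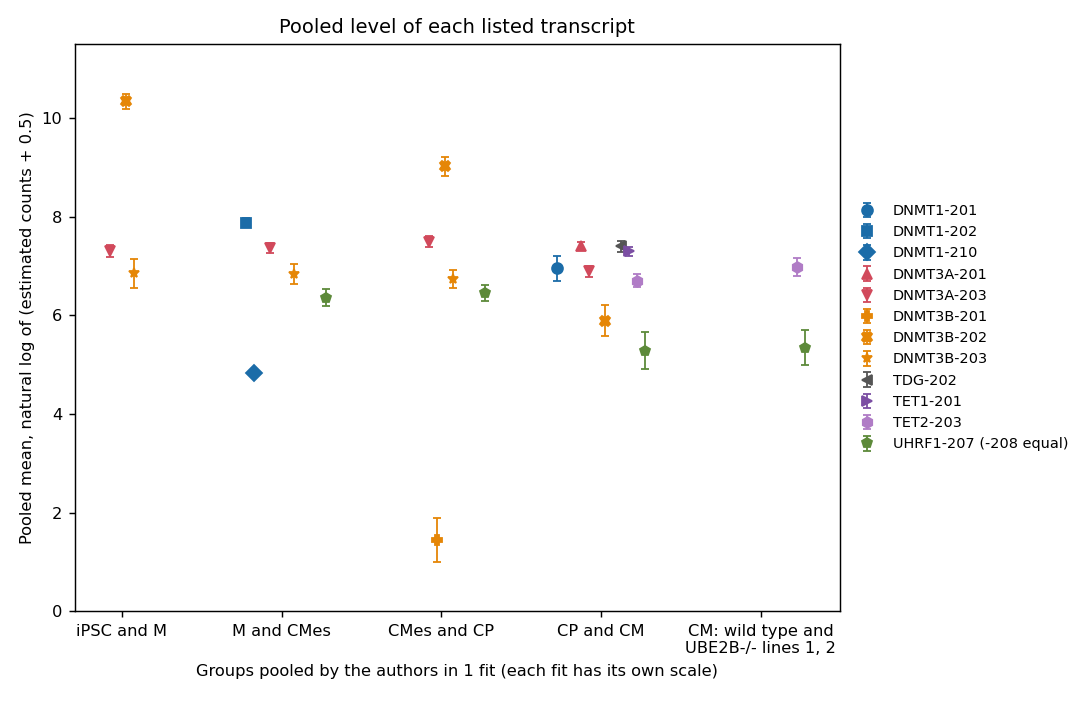
Pooled level of each listed transcript of the set, as the authors' mean natural log of estimated counts plus 0.5 (vertical axis), for the groups pooled in each fit (horizontal axis). Bars are 1 within-group SD, and UHRF1-208 equals UHRF1-207 in the wild-type tables. DNMT3B-202 goes from 10.34 to 5.89 between the first and the fourth fit, while the pooled means of DNMT3A-203 lie between 6.89 and 7.49. For DNMT3B-202 in the fourth fit the technical variance, 1.37, was above the within-group variance of 0.0993 that sets its bar.

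The demethylation genes TET1, TET2 and TDG were listed in CP and CM and in no earlier table. TET1-201 (ENST00000373644.5, chr10:68560337-68694487, plus strand, 12 exons), the dioxygenase known from pluripotent cells, stood at 1474 estimated counts (SD 0.0889). TET2-203 (ENST00000380013.8, chr4:105146876-105279803, plus strand, 11 exons) stood at 815.9 (SD 0.131). TDG-202 (ENST00000392872.8, chr12:103965872-103988874, plus strand, 10 exons) stood at 1631 (SD 0.104). TET3 was listed in no table.

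Per kb, TDG-202 led the CP and CM table with 512.5 estimated counts per kb, 1.87-fold above DNMT3A-203 (274.6). DNMT1-201 (192.5) and DNMT3A-201 (173) were neighbours whose gap of 0.107 on the natural-log scale was smaller than the larger of their SDs, 0.244. TET1-201 followed at 153.4. TET2-203 (85.1) and DNMT3B-202 (83.5) differed by 1.02-fold, less than the larger SD of 0.315, and either UHRF1 row came last at 50.6. The technical variance of DNMT3B-202 here was 1.37, against a within-group variance of 0.0993, so its place is less certain than its SD shows. With the 2 UHRF1 rows summed, UHRF1 held 101.1 per kb and stood at rank 6 of 8, above TET2-203 and DNMT3B-202. No SD was computed for a sum, and a single UHRF1 row had an SD of 0.378, so this rank was not set against a spread. Among the single rows, the gaps between other neighbours exceeded the larger SD, apart from the equal UHRF1 rows. In CMes and CP the order per kb was DNMT3B-202 (1902), DNMT3A-203 (500.6), DNMT3B-203 (208.9), either UHRF1 row (162.4) and DNMT3B-201 (0.886). The sum of the UHRF1 rows, 324.7, stood above DNMT3B-203 at rank 3 of 5, so the order of these 2 genes turns with the treatment of the UHRF1 rows. DNMT3B-202 and DNMT3A-203 led by gaps larger than the SD.

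**Figure D3:**
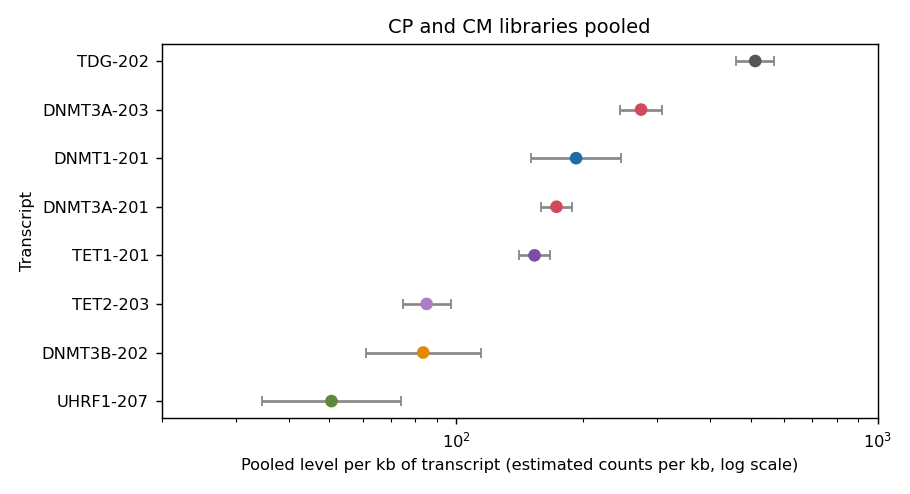
Pooled level per kb of transcript in the CP and CM table (horizontal log axis, estimated counts per kb) for each listed transcript (vertical axis). Points are pooled values over 6 libraries, from 50.6 for UHRF1-207 to 512.5 for TDG-202. Bars span 1 within-group SD either way. For DNMT3B-202 the technical variance, 1.37, was above the within-group variance of 0.0993 that sets its bar.

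The precision of these values differed between genes. The within-group SD of the 26 rows ran from 0.076 to 0.449 with a median of 0.17 on the natural-log scale, and the median SD over all listed transcripts of a table ran from 0.153 to 0.269. Sleuth also gives a technical variance, estimated by resampling the reads of a library, which covers the doubt in assigning reads to transcripts. It was above the observed within-group variance in 6 of 26 rows, against 11% to 26.2% of all listed rows of a table. For DNMT3B-202 it was 8.84e-05 in iPSC and M and 1.37 in CP and CM, against within-group variances of 0.0234 and 0.0993. For DNMT3B-201 it was 1.97 against 0.202. In these DNMT3B rows the technical variance was 1382% and 979% of the within-group variance. DNMT1-210, DNMT1-202, DNMT3B-203 in CMes and CP and TET2-203 in CP and CM were the other rows of this kind. DNMT3A, TET1 and TDG rows had technical variances of at most 0.00368.

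**Figure D4:**
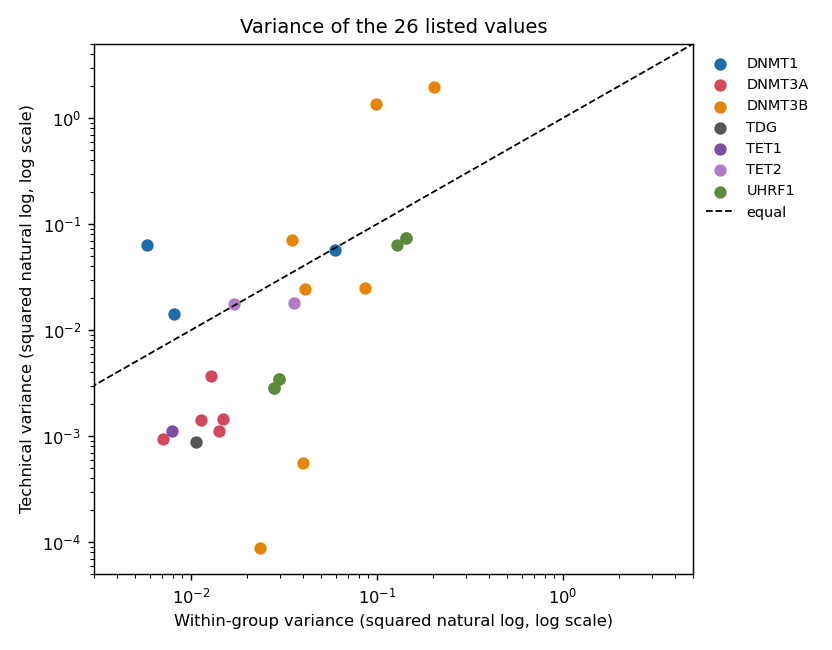
Technical variance (vertical) against within-group variance (horizontal) of the 26 listed values, both in squared natural-log units on log axes, coloured by gene. The dashed line marks equal variances, and 6 rows lie above it, with DNMT3B in CMes and CP and in CP and CM highest at 1.97 and 1.37.

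In the UBE2B-/- comparisons, 2 member rows were listed in the line 1 table of 3088 rows and 0 in the line 2 table of 3134 rows, which listed 11.9% and 11.7% of all protein-coding genes. TET2-203 had a pooled level of 1072 estimated counts (SD 0.189, 9 libraries), and UHRF1-207 of 208.2 (SD 0.358). A row listed for 1 line and not the other is no measure of a difference between the lines, which was not tested. Relative to the CP and CM table, TET2-203 differed by 0.273 and UHRF1-207 by 0.0544 on the natural-log scale, where the median of 1725 shared transcripts differed by 0.305. Both fits include the wild-type CM libraries. Each UBE2B-/- line comes from its own editing experiment and may carry features of its clone.

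Other genes of the pathway were counted from lists of DNMT1 partners, methyl-CpG readers, repair enzymes and enzymes that supply the cofactors. Of 38 such genes, 33 were listed in at least 1 table, against 57.5% of the 19702 genes with a protein-coding transcript in the annotation, a background that also holds genes these cells do not express. Per table the counts were 9, 15, 17 and 25 in the 4 wild-type tables in order of stage, and 5 and 3 in the UBE2B-/- line 1 and line 2 tables. Among them were 6 of 6 DNMT1 partners, 10 of 10 methyl-CpG readers, 10 of 15 repair genes and 7 of 7 cofactor genes. The members were listed with 2, 4, 3 and 7 of 9 genes in the wild-type tables, against 12.8%, 22.9%, 26.3% and 38.2% of all protein-coding genes, while those tables listed 3315, 6541, 7519 and 12982 rows, so both counts grew with the length of the table apart from the members in CMes and CP. Within their tables, 23 of 26 member rows were at or above the median level and 13 were at or above its 75th percentile. Per kb, 21 of 26 were at or above the median. These rows come from 7 genes and 13 transcripts, some of them in several tables. The 2 UHRF1 rows of a wild-type table are equal, so the rows are not separate observations.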

How the data were processed

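Reads were trimmed, quantified per transcript with Kallisto on hg38 and fitted in Sleuth by the authors. The deposited means are on a natural log scale, as the authors' mean over libraries of normalized estimated counts plus 0.5. The deposited technical and biological variances are scores in squared natural-log units, and the biological variance is a difference that can fall below 0. The tables also hold the authors' own comparisons (p-values, q-values, effects with standard errors) and further variance columns, which were not used. These comparison columns were seen while the files were inspected, but none entered the values given.

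The within-group variance was the sum of the technical and biological variance. Lengths, exons and names came from GENCODE 44, joined by identifier without version (12 of 13 member transcripts had the same version). The listed share of protein-coding genes was counted by transcript identifier. All listed transcripts of the 9 members are named, and the transcript with the highest mean speaks for a gene. The members and lists were chosen with earlier results of these data known. Python with pandas and numpy was used. Alternatives were summing transcripts, dividing by length and taking symbols from the annotation.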

Additional observations from a re-analysis of the deposited data

How the results depend on the processing

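Taking gene symbols from the annotation left the number of member rows as listed in 6 of 6 tables. Dividing by length moved 4 of 18 ranks of genes, all in the CP and CM table, where TDG came to rank 1, DNMT1 to rank 2, DNMT3A to rank 3 and TET1 to rank 4. Summing the listed transcripts moved 4 of 18 levels by more than the within-group SD, UHRF1 to 7.05, 7.14 and 5.98 in M and CMes, CMes and CP, and CP and CM, and DNMT3A to 7.88 in CP and CM, all on the natural-log scale. Summing the UHRF1 rows per kb, chosen after seeing the data, moved the rank of UHRF1 among listed transcripts from 5 to 3, 4 to 3 and 8 to 6 in these tables. No paired analysis was possible because the tables hold pooled values with no value per library. For the same reason no replicate could be left out and no depth is known. The authors' own tests and standard errors were not used, so no test or interval is given.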
